A study of Mus musculus with 23 samples.

Results

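The genes of the proteasome were followed across newly transcribed RNA, total RNA and amplified total RNA of mouse fibroblasts. They were taken by symbol: every probe set whose annotation gave a single symbol beginning Psma, Psmb, Psmc, Psmd, Psme or Psmg and ending in digits, with the brightest probe set over all 23 arrays standing for each gene. This gave 44 genes, measured by 56 probe sets, out of 8251 genes with a single symbol and 12422 probe sets tested. They were 7 alpha subunits and 7 constitutive beta subunits of the 20S core, 3 inducible beta subunits, 6 ATPases of the 19S cap and 14 genes named Psmd, most of them other cap subunits and some its chaperones, 3 activators and 4 assembly chaperones. The 2 probe sets that listed Psme2 together with a second symbol were left out, so Psme2 was not analysed here.

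The cells were primary mouse embryonic fibroblasts of age e14.5, cells grown out from embryos, whose genotype the labels give as C57/BLACK6, ATF1 -/+ in every group. They were starved for 48 h in 1% dialyzed serum. For the last 2 h the medium held 200 µM 4-thiouridine, a uridine analogue that enters RNA as it is made, and 3H-cytidine, with the serum either kept at 1% (starved) or raised to 10% (treated). Newly transcribed RNA is the thiol-bearing RNA bound by an organomercurial matrix. There were 4 arrays of newly transcribed RNA, starved, and 4 treated, 3 arrays of amplified total RNA, starved, and 4 treated, and 4 arrays of total RNA, starved, and 4 treated. Titles number the samples within a group and call them biological, and the labels do not say which numbers shared a culture. The labels' labelling protocol mentions linear amplification for every sample, so total RNA is called unamplified here only by its title. The design sets the serum response of RNA made during labelling beside that of the standing pool.

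The proteasome degrades proteins that carry ubiquitin chains. Its 20S core is a barrel of stacked alpha and beta rings in which Psmb5, Psmb6 and Psmb7 encode the subunits that cut peptide bonds, and the 19S cap recognises the ubiquitin chain, removes it, and unfolds and feeds in the substrate with its ring of ATPases. Interferon induces Psmb8, Psmb9 and Psmb10, which take the places of Psmb5, Psmb6 and Psmb7 in the immunoproteasome, together with the activator subunit Psme1. Proteasome proteins are abundant and long-lived, and their genes are commonly transcribed in concert under the factor Nfe2l1.

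Levels are given as log2(intensity + 16) after quantile normalization, on which scale an intensity of 0 reads 4 and a step of 1 is a 2-fold change of intensity plus 16. The mean of 40 of the 44 genes lay above the median of all tested probe sets, while Psmc4 and Psmd2 stayed below an intensity of 16 in the mean of every group. Levels of different genes are not compared, since each rests on its own probes. With 3 or 4 arrays a group, their number sets the precision.

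Across the series the arrays did not only group by kind of RNA. Clustering by correlation over all other probe sets gave 2 sets: set 1 held, of newly transcribed RNA, arrays 1 and 4 of each serum condition and, of amplified RNA, numbers 1 and 3 when starved and numbers 1 and 4 when treated, and set 2 held the other 15, with every total RNA array. Medians of the deposited intensities ran from 7.3 to 75.2 over the arrays. Of the serum-responsive genes Fosb, Nr4a1, Ptgs2 and Myc, limma without a block called the first 3 higher in total RNA and none in newly transcribed or amplified total RNA. With the replicate number as a block all 4 were called higher in total and newly transcribed RNA. For Fosb, a subunit of the AP-1 transcription factor, the log2 difference was 2.38 ± 0.19 (SE) in total RNA (limma, adjusted p = 0.00721, 4 arrays against 4) and 2.56 ± 0.28 in newly transcribed RNA with the replicate number as a block, which compares same-numbered arrays (limma, adjusted p = 0.0261; without it 0.239). The difference between the 3′ and 5′ control probe sets of Gapdh ran from 1.46 to 3.36 in newly transcribed RNA, from 0.70 to 2.19 in amplified total RNA and from -0.32 to -0.06 in total RNA.

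Promoters are shown here for genes whose levels differed most between newly transcribed and amplified total RNA of starved cells, in the comparisons that follow. RefSeq promoter windows of build GRCm38.p6, from 250 bases before to 50 bases after the annotated start, were found for 37 of the 44 genes. The interferon-stimulated response element core, the letters GAAA repeated after any 2 bases, was searched on both strands and found in 5 of these 37 genes (13.5%), namely Psmb3, Psmd4, Psmd9, Psme1 and Psmg4, and in 3.44% of 32851 windows of the same length. Of the 4 genes called lower, that is at a limma adjusted p below 0.05, in newly transcribed RNA of starved cells, Psme1, Psmg4 and Psmd9 hold these letters, in capitals, and Psmc3 had no window. Psmb3 and Psmd4 hold them too and were not called there. The windows of the interferon-inducible Psmb8 and Psmb9 do not hold them. In treated cells Psmb6, Psmb8 and Psmd13 had larger negative differences than Psmg4, and none of their windows holds these letters. The window of Psmd5, the gene with the highest positive difference in starved cells, is given below those of Psme1, Psmg4 and Psmd9, with the letters GGGCGG, a GC box, in capitals. These letters are not particular to Psmd5. On one strand or the other they also occur in the windows of Psme1, Psmg4 and Psmd9, where they are not in capitals.
Psme1, chr14:55578244-55578543, plus strand: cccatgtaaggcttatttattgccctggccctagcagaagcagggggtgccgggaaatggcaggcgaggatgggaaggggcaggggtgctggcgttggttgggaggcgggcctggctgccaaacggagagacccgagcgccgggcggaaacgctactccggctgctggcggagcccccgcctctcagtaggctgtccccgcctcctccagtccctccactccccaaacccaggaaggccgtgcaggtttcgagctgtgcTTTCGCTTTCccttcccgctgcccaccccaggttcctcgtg
Psmg4, chr13:34162714-34163013, plus strand: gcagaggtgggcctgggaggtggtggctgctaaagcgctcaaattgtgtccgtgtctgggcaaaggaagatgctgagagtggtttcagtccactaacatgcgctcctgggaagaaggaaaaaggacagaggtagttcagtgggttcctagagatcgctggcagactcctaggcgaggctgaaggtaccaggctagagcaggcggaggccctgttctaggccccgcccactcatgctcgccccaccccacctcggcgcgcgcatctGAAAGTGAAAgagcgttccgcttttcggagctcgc
Psmd9, chr5:123227940-123228239, plus strand: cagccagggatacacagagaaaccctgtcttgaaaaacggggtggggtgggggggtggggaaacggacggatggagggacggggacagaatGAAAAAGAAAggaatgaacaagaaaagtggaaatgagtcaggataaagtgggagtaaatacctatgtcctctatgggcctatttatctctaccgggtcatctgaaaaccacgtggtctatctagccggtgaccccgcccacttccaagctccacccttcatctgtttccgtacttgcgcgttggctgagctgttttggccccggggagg
Psmd5, chr2:34870913-34871212, minus strand: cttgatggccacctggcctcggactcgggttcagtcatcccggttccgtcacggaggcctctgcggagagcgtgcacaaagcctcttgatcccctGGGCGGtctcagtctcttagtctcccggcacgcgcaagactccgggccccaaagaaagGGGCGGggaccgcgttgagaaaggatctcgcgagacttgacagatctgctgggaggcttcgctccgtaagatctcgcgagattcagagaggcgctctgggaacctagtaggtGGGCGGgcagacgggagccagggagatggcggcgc
The match lay at bases 260 to 269 of the window in Psme1 and at bases 266 to 275 in Psmg4, both after the annotated start, and at bases 92 to 101 in Psmd9. None of the other letters searched overlapped these 3 matches. The letters CCGGAAG, a core bound by ETS factors, occurred in 14 of the 37 genes (37.8%) and in 8.86% of all windows. GGGCGG occurred in 22 of the 37 (59.5%) and in 35.66% of all windows, and CCAAT in 13 (35.1%) and 37.41%. The antioxidant element letters TGACNNNGC occurred in 6 of the 37 (16.2%) and in 12.39% of all windows, TATAAA in 4 (10.8%) and 13.62%, and TTCNNNGAA, a STAT factor site, in 3 (8.1%) and 8.30%. The CArG box of serum response factor occurred in 1 gene, Psma6 (2.7%), and in 1.63% of all windows. These counts describe letters, not bound sites.

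The first question was whether 2 h of serum changed the synthesis or the amount of proteasome transcripts. No proteasome gene passed the test in any kind of RNA. In newly transcribed RNA 0 of 44 genes were called at an adjusted p below 0.05, against 0% of all probe sets, and 0 of 44 against 1.74% with the replicate number as a block. In total RNA 0 of 44 were called against 0.121% of all probe sets, or 0.483% with the block, and in amplified total RNA 0 of 44 against 0%. At an unadjusted p below 0.05 the same fits gave 1 gene without the block and 8 with it in newly transcribed RNA, against 6.44% and 21.7% of all probe sets. They gave 0 and 2 in total RNA, against 4.94% and 10.7%, and 0 in amplified total RNA, against 1.41%. The median log2 difference of the 44 genes, treated minus starved, was -0.00 in newly transcribed RNA, -0.06 in total RNA and -0.03 in amplified total RNA, where all probe sets had medians of 0.01, -0.01 and -0.01.

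The interval of each difference shows how much change remained possible. With the replicate number as a block, the 95% interval lay within 2-fold of no change for 39 of 44 genes in newly transcribed RNA and for 43 of 44 in total RNA, the shares of all probe sets being 90.6% and 96.3%. Without the block it did so for 21 of 44 and 40 of 44 genes, against 64.6% and 89.9% of all probe sets. In amplified total RNA, where no block was used, it did so for 17 of 44 genes, against 51.1% of all probe sets.

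**Figure D1:**
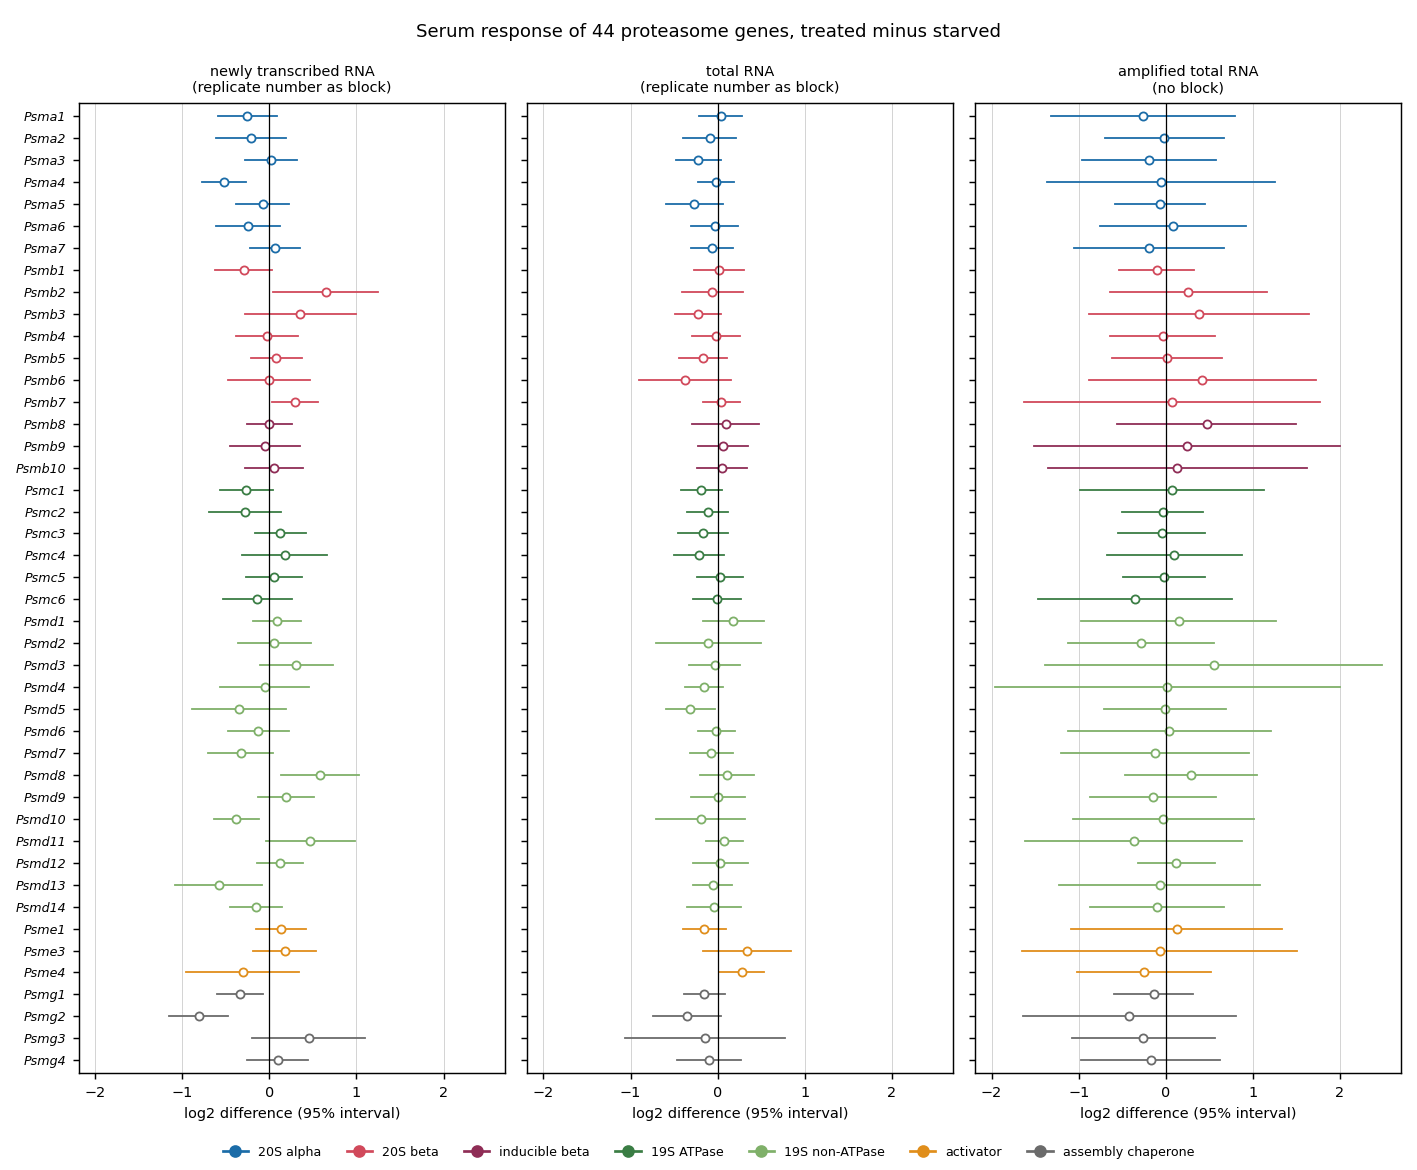
Log2 difference, treated minus starved, of each of the 44 genes in newly transcribed RNA, total RNA and amplified total RNA, with its 95% interval from limma, the first and second panel with the replicate number as a block. Colours mark the role of the gene and filled points would mark an adjusted p below 0.05. No point is filled in any panel.

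The alpha ring of the 20S core, which gates the entry of the barrel, had no gene called. Its 7 genes had serum differences from -0.53 (Psma4) to 0.06 (Psma7) in newly transcribed RNA and from -0.27 (Psma5) to 0.03 (Psma1) in total RNA. Among the constitutive beta genes Psmb2, a structural subunit of the beta ring, had the largest positive difference. Its newly transcribed level was 8.25, 8.66, 8.28 and 9.22 in the 4 starved arrays and 8.81, 9.74, 9.49 and 8.97 in the treated ones. The groups overlapped, with the starved array 4 above the treated arrays 1 and 4. The difference was 0.65 ± 0.29 (SE, limma, adjusted p = 0.804; with the block SE 0.25 and adjusted p = 0.204).

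For the catalytic subunits the serum difference in newly transcribed RNA was 0.08 ± 0.37 (SE) for Psmb5, -0.01 ± 0.28 for Psmb6 and 0.29 ± 0.46 for Psmb7, the genes of the chymotrypsin-like, caspase-like and trypsin-like sites. With the block the SE was 0.12, 0.19 and 0.11, and none was called. In total RNA Psmb6 had the lowest difference of all 44 genes. Its level was 9.50, 9.10, 9.39 and 9.19 in starved and 8.52, 9.37, 8.70 and 9.09 in treated arrays, a difference of -0.38 ± 0.20 (limma, adjusted p = 1). Treated arrays 1, 3 and 4 lay below all starved arrays, array 4 barely, while treated array 2 was above 2 of them.

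For the inducible subunits the serum difference in newly transcribed RNA was -0.00 ± 0.37 (SE) for Psmb8, -0.05 ± 0.42 for Psmb9 and 0.06 ± 0.45 for Psmb10, with SE of 0.11, 0.17 and 0.14 when the replicate number was a block. In amplified total RNA Psmb8 had a difference of 0.47 ± 0.44 (limma, adjusted p = 1). The list of 12 other genes of interferon-induced antigen processing had 0 called by limma in any kind of RNA, also with the block. Its transcription factor Irf1 had serum differences of -0.80, -0.88 and -0.84 in newly transcribed, total and amplified total RNA, with adjusted p of 0.0676 and 0.0718 in the first and second of these with the block.

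In the 19S cap the differences were spread to both sides. Psmd13, a subunit of the lid, had the lowest in newly transcribed RNA, with levels of 8.29, 8.38, 8.40 and 7.49 in starved and 7.07, 8.39, 7.66 and 7.12 in treated arrays. The treated value was the lower in 3 of 4 numbered pairs, all but number 2, and the groups overlapped. The difference was -0.58 ± 0.34 (SE, limma, adjusted p = 0.917; with the block adjusted p = 0.176). Psmd8, also of the lid, had the highest at 0.58 ± 0.41 (adjusted p = 0.975; with the block 0.145). In total RNA the base assembly factor Psmd5 had -0.31 ± 0.17 and the ubiquitin receptor Psmd4 -0.16 ± 0.10, neither of them called. The beta subunit Psmb3 had -0.23 ± 0.14 there.

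The assembly chaperone Psmg2, which pairs with Psmg1 to build the alpha ring, stood closest to the threshold. Its newly transcribed level was 7.58, 7.63, 7.34 and 7.68 in the starved arrays and 6.57, 6.77, 6.36 and 7.28 in the treated ones. Every treated array was below every starved array, and Psmg2 was the only gene of the 44 for which these groups did not overlap, against 1.70% of all probe sets lower in this way. The difference was -0.81 ± 0.21 (SE), which did not pass the test (limma, adjusted p = 0.509), nor did it with the block (SE 0.14, adjusted p = 0.0504). In total RNA the Psmg2 levels were 6.99, 6.47, 6.41 and 6.89 when starved and 6.80, 6.56, 5.87 and 6.12 when treated, with overlapping groups and a difference of -0.35 ± 0.23. In amplified total RNA the difference was -0.42 ± 0.52. Its partner Psmg1 had -0.34 ± 0.16 in RNA made during labelling, -0.15 ± 0.17 in the total pool and -0.14 ± 0.19 after its amplification. The 4 chaperones had differences from -0.35 to -0.10 in total RNA and from -0.42 to -0.14 in amplified total RNA, none called, but with values as deposited their medians there were 0.22 and 0.29. Psmg3 and Psmg4 were at 0.45 and 0.09 in newly transcribed RNA. With values as deposited, the 44 genes had medians of -0.42 for newly transcribed RNA, 0.36 for total RNA and 0.55 after amplification, and that of all probe sets -0.18, 0.21 and 0.25. With arrays scaled to a common median the 44 genes had -0.06, 0.04 and 0.06.

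The activators had no called difference either. The serum difference in newly transcribed RNA was 0.14 ± 0.24 (SE) for Psme1, 0.17 ± 0.70 for the nuclear activator Psme3 and -0.31 ± 0.54 for Psme4, which is known for its part in spermatogenesis. A test of the response itself between kinds of RNA called 0 of 44 genes for newly transcribed minus total RNA and 0 for newly transcribed minus amplified total RNA, against 0% of all probe sets for each. At an unadjusted p below 0.05 these limma fits gave 0 genes each, against 2.41% and 1.62% of all probe sets, and with the block 2 and 1, against 10.8% and 5.73%. The largest of these differences of responses were 0.71 ± 0.33 for Psmb2 against total RNA and 0.84 ± 0.67 for Psmd11 against amplified total RNA.

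The second question was how far newly made RNA differs in makeup from the standing pool amplified in a like way. Few proteasome genes passed the test, and those that did were lower in newly transcribed than in amplified total RNA. In starved cells 4 of 44 genes were called, all lower, against 3.33% of all probe sets called lower and 5.76% called in either direction. In treated cells 3 of 44 were called, all lower, against 4.66% lower and 7.26% in either direction. The 3 genes Psme1, Psmg4 and Psmc3 were called in both, and calls in both were not counted over all probe sets. The median difference was -0.25 in starved and -0.34 in treated cells, where all probe sets had -0.01 and 0.02, and 31 and 35 of the 44 differences were negative. The starved median depended on the scaling. With arrays scaled to a common median it was -0.12, against -0.07 for all probe sets, and 5 genes were called, 4 lower and 1 higher, against 5.31%. It turned to 0.61 with values as deposited, with 8 of 44 negative, against 0.35 for all probe sets. In treated cells the median was -0.43 and -0.39 under these scalings, against 0.00 and 0.01. With values as deposited 0 genes were called in either condition, against 0% of all probe sets.

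Replicate number and array set moved these counts. For treated cells, where same-numbered arrays deviated together, the fit with the number as a block called 12 of 44 genes, against 18.7% of all probe sets. Of these genes 10 were lower, against 9.73% of all probe sets, and 2 higher, against 9.01%. That fit also held the starved arrays, and on treated arrays alone 13 genes were called, against 21.1%. With array set as a block 11 of 44 were called in starved cells, against 18.5%, and 13 in treated cells, against 20.6%. The starved calls were 10 lower and 1 higher, against 8.44% and 10.1% of all probe sets. The treated calls were 11 lower and 2 higher, against 10.1% and 10.5%. In that fit 8 genes were called lower in both conditions, namely Psmb3, Psmb5, Psmb8, Psmb10, Psmc3, Psmd9, Psme1 and Psmg4. Psmd5 was called higher in both. How many of all probe sets were called in both was not counted, so these genes have no share beside them. The share of all probe sets called moved as well when arrays were left out. In starved cells 2 genes were called without amplified array 2, against 2.78% of all probe sets, and 2 without newly transcribed array 3, against 3.40%. In treated cells 5 were called without amplified array 1, against 7.82%. With the number as a block, 4 were called without the pair numbered 2, against 7.20%, and 6 without the pair numbered 4, against 11.8%.

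**Figure D2:**
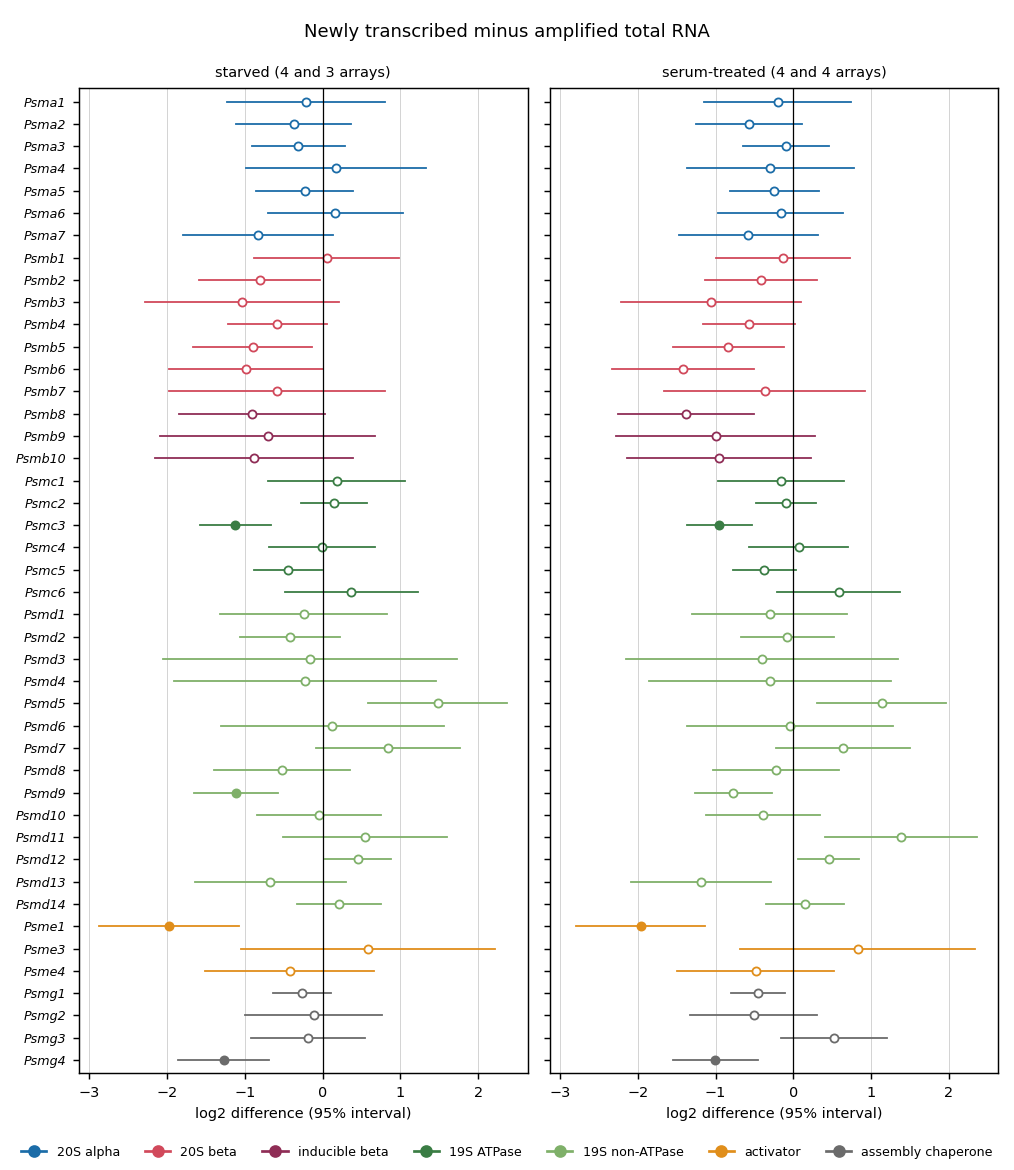
Log2 difference, newly transcribed minus amplified total RNA, of the 44 genes in starved and treated cells, with 95% intervals from limma without a block. Filled points have an adjusted p below 0.05: 4 in starved and 3 in treated cells, all to the left of 0.

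Psme1, the interferon-inducible activator subunit that opens the gate of the core, had the largest difference. Its level was 6.59, 7.18, 7.01 and 6.47 in newly transcribed RNA of starved cells and 8.20, 9.56 and 8.61 in amplified total RNA. In treated cells it was 6.95, 7.38, 6.96 and 6.49 against 8.01, 9.64, 9.54 and 8.45. Every newly transcribed array was below every amplified one in both conditions. The differences were -1.97 ± 0.42 (SE, limma, adjusted p = 0.0138, 4 arrays against 3) and -1.96 ± 0.39 (adjusted p = 0.00742, 4 against 4). Within array set 1 they were -1.87 and -1.51, and within set 2 -2.46 and -2.42. Without amplified starved array 2 the first became -1.59 (adjusted p = 0.0730). The unamplified total RNA arrays lay between 7.87 and 8.60, also above every newly transcribed array. A second, dim probe set of Psme1 had differences of -0.10 and -0.21 and was not called.

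Psmg4, the partner of Psmg3 in starting the alpha ring, was lower as well. It read 6.31, 6.13, 5.96 and 6.67 in newly transcribed and 8.28, 7.42 and 6.93 in amplified total RNA of starved cells, and 6.24, 6.27, 6.45 and 6.48 against 7.62, 7.27, 7.53 and 7.06 in treated cells. The groups did not overlap in either condition. The differences were -1.27 ± 0.27 (SE, limma, adjusted p = 0.0153) and -1.01 ± 0.25 (adjusted p = 0.0283). The second of these lost its call on leaving out any treated array but amplified array 4, with adjusted p from 0.0546 to 0.0771. The first did so without newly transcribed starved array 3 (adjusted p = 0.0511).

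Psmc3, an ATPase of the cap's base, was lower with all its probe sets. Its level was 8.09, 8.41, 8.26 and 8.03 in newly transcribed and 9.50, 9.36 and 9.10 in amplified total RNA of starved cells. In treated cells it was 8.14, 8.81, 8.36 and 7.98 against 9.22, 9.62, 9.26 and 9.0. These groups did not overlap, and the differences were -1.12 ± 0.21 (SE, limma, adjusted p = 0.00766) and -0.95 ± 0.20 (adjusted p = 0.00975). The other 2 probe sets of the gene had -1.47 and -1.13 in starved and -1.10 and -0.96 in treated cells, all called. Of these 3 probe sets, 2 carry the suffix for probes shared within a family and the other the suffix for fewer probes, so the signal of related transcripts cannot be told apart.

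Psmd9, a chaperone of the cap's base, was called lower in starved cells, with a probe set whose suffix marks relaxed rules of probe selection. It read 7.89, 7.46, 7.45 and 7.87 in newly transcribed and 9.15, 9.07 and 8.12 in amplified total RNA, without overlap and with a difference of -1.11 ± 0.25 (SE, limma, adjusted p = 0.0187). The call was lost without any one of amplified starved arrays 1 and 2 and newly transcribed starved arrays 2 and 3. In treated cells the difference was -0.77 ± 0.23 (adjusted p = 0.0613; with the block 0.0377). Unamplified total RNA read from 7.22 to 7.68, overlapping newly transcribed RNA and below every amplified array.

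**Figure D3:**
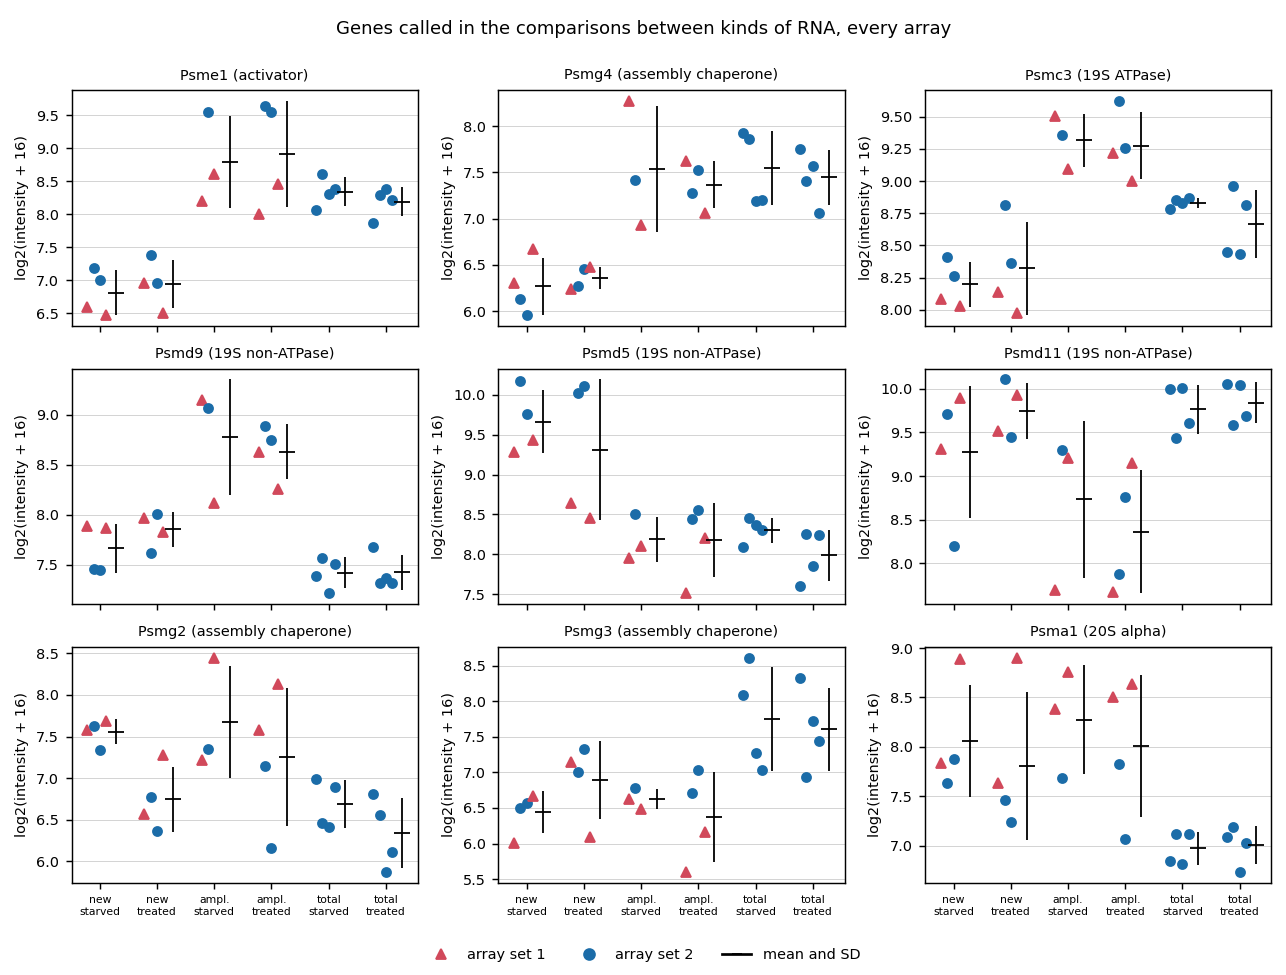
Level of 9 genes on each array, log2(intensity + 16), by group. Triangles are arrays of set 1, circles arrays of set 2, in order of replicate number, with the group mean and SD beside them. Psme1, Psmg4 and Psmc3 are lower in newly transcribed than in amplified total RNA without overlap, and Psmd9 is higher in amplified than in unamplified total RNA without overlap.

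The 3 inducible beta genes were lower in newly transcribed RNA in treated cells once the replicate number was a block. Psmb8 read 6.18, 7.35, 7.18 and 6.31 in newly transcribed and 7.41, 8.60, 8.71 and 7.83 in amplified total RNA, without overlap. Its difference was -1.38 ± 0.16 (SE, limma with the block, adjusted p = 0.000317; without it SE 0.40 and adjusted p = 0.0575). Psmb9 had -1.0 ± 0.27 (adjusted p = 0.0237 with the block) and Psmb10 -0.96 ± 0.25 (adjusted p = 0.0221 with the block). Without the block their adjusted p were 0.407 and 0.380. In starved cells the 3 differences were -0.91, -0.71 and -0.88, with adjusted p of 0.291, 0.637 and 0.486. Psmb8 there read 6.17, 7.22, 7.26 and 6.38 against 7.08, 8.38 and 7.54, so that newly transcribed arrays 2 and 3 lay above amplified array 1. With values as deposited only 2 of the 3 differences were negative in starved cells.

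Constitutive beta genes lay on the same side. Psmb6 read 7.15, 7.91, 8.0 and 7.31 in newly transcribed and 7.97, 9.66, 9.26 and 9.14 in amplified total RNA of treated cells. Amplified array 1 was the only one within the newly transcribed range, and the difference was -1.42 ± 0.23 (SE, limma with the block, adjusted p = 0.00200; without it 0.0625). Psmb5 had -0.84 ± 0.18 (adjusted p = 0.00738 with the block, 0.166 without), and its dimmer probe set had 0.29. Psmb7 had -0.37 ± 0.45 (adjusted p = 0.670 with the block), with a probe set whose suffix marks probes shared within a family. By their brightest probe sets, all 7 constitutive beta genes had a negative difference in treated cells, under all 3 scalings. In starved cells 6 of 7 did, all but Psmb1 at 0.05. With values as deposited only 1 of 7 was negative in starved cells, and with a common median all 7 were. A further probe set of Psmb1 was called lower in both conditions at -1.18 and -1.18. Another, dim probe set of the gene had -0.12 in starved and -0.15 in treated cells and was not called, so its probe sets disagree. The further, dim probe sets of Psmb4 had 0.22 and -0.29 in starved and 0.21 and -0.00 in treated cells, none called.

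**Figure D4:**
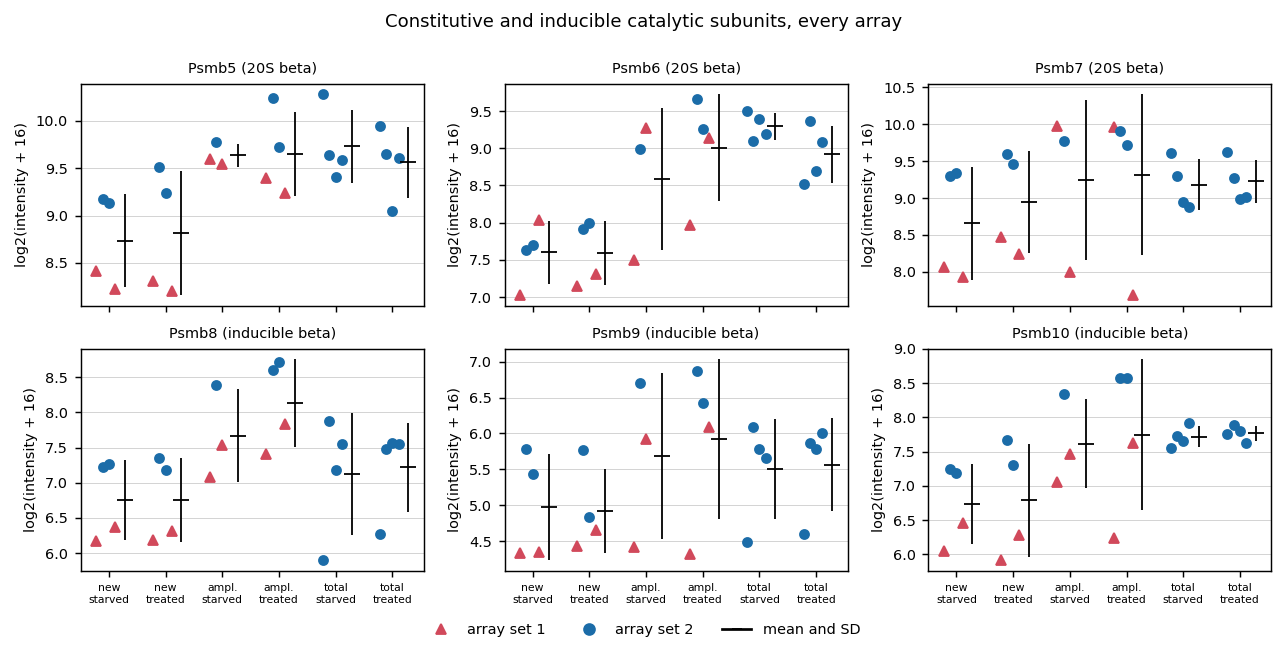
Level of the 3 constitutive catalytic genes Psmb5, Psmb6 and Psmb7 and their inducible counterparts Psmb8, Psmb9 and Psmb10 on each array, log2(intensity + 16), by group. Triangles are arrays of set 1 and circles arrays of set 2, with the group mean and SD. Total RNA array 1 is low for Psmb8 and Psmb9 in both serum conditions.

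The alpha ring showed smaller differences, from -0.83 (Psma7) to 0.17 (Psma4) in starved and from -0.58 (Psma7) to -0.10 (Psma3) in treated cells, with 0 of 7 called without a block or with array set as one, and with the replicate number as a block in treated cells. Of the 6 ATPases Psmc6 had the highest difference, at 0.37 and 0.58, and was not called. In the rest of the cap Psmd13 had -1.18 ± 0.26 in treated cells (limma with the block, adjusted p = 0.00879; without it 0.115).

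A pair of cap genes ran the other way. Psmd5, another chaperone of the cap's base, read 9.28, 10.18, 9.77 and 9.43 in newly transcribed and 7.95, 8.50 and 8.11 in amplified total RNA of starved cells, without overlap, and the difference was 1.48 ± 0.42 (SE, limma, adjusted p = 0.0564). In treated cells it read 8.65, 10.03, 10.12 and 8.45 against 7.51, 8.45, 8.55 and 8.21. There newly transcribed array 4 overlapped the amplified range, and the difference was 1.13 ± 0.25 (limma with the block, adjusted p = 0.00884; without it 0.104). The total RNA arrays lay between 7.60 and 8.45, in the range of the amplified ones. Psmd11, a lid subunit whose abundance limits assembled proteasome in some cells, read 9.51, 10.11, 9.45 and 9.92 in newly transcribed and 7.67, 7.88, 8.76 and 9.15 in amplified total RNA of treated cells, without overlap. Its difference was 1.38 ± 0.39 (limma with the block, adjusted p = 0.0288; without it 0.0912). In starved cells it was 0.54 ± 0.49, and the other probe sets of the gene had 0.28 and 0.81 in treated and -0.85 and 0.18 in starved cells, none called. Unamplified total RNA read 9.44 to 10.05 for Psmd11, within the range of newly transcribed RNA.

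Genes that work with the proteasome moved to both sides. Of 26 measured genes for ubiquitin, its shuttles and proteasome regulators, 1 was called higher and 1 lower in starved cells, and 2 higher and 1 lower in treated cells, or 3 and 4 with the replicate number as a block. The ubiquitin ligase Mdm2 was higher by 1.54 ± 0.22 and 1.09 ± 0.20 (SE, limma, adjusted p = 0.00168 and 0.00544), and Nfe2l2, a stress-activated factor that can induce proteasome genes, by 1.49 ± 0.42 in treated cells (adjusted p = 0.0498). The chaperone partner Bag1 had differences of -1.25 ± 0.26 and -1.20 ± 0.24 (adjusted p = 0.0120 and 0.00770). The median of the list was 0.25 in both conditions. Of the 12 other genes of interferon-induced antigen processing, 0 were called higher and 2 lower in starved cells, and 0 higher and 3 lower in treated cells, or 1 and 6 with the block. The list's medians were -0.53 and -0.82. The peptide-loading protein Tapbp had -1.88 ± 0.51 and -2.19 ± 0.47 (adjusted p = 0.0467 and 0.0126), and B2m, the light chain of MHC class I, -1.71 ± 0.25 and -1.40 ± 0.23 (adjusted p = 0.00197 and 0.00279). H2-D1, an MHC class I heavy chain, had -1.87 ± 0.52 in treated cells (adjusted p = 0.0453). Irf1, whose transcript is short-lived, was at 1.04 and 1.08 (adjusted p = 0.101 and 0.0565, the latter 0.0340 with the block).

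Marker lists of the cultured fibroblasts and of other cells were measured beside these genes. Of 12 fibroblast markers 2 were called lower in starved and 3 in treated cells and 0 higher, and 9 had a negative difference in each condition, with medians of -0.79 and -0.65. Of 14 measured macrophage markers 2 were called lower in each condition and 0 higher, and 12 had a negative difference in each, with medians of -0.68 and -0.93. Their summed intensity ran from 2931 to 7654 and from 4735 to 9799 in newly transcribed RNA, starved and treated, and from 5648 to 15580 and from 5962 to 16070 in amplified total RNA, and in total RNA it ran from 5283 to 12637 and from 5354 to 13249. No macrophage marker was at a deposited 0 throughout, and the receptor Csf1r read 6.51 to 10.36 over the 23 arrays. Of 8 lymphocyte markers 6 were below an intensity of 16 in the mean of every group, and of 7 endothelial markers 2 to 5 were, with 0 of either list called in these comparisons without a block. The part of these cells in the differences of the inducible genes was not tested, and in bulk RNA fewer cells of a type and less RNA per cell cannot be told apart. The 3′ to 5′ differences of the control transcripts also differ between these kinds of RNA, and their part was not tested.

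In total RNA the inducible genes varied with the replicate number. Psmb8 read 5.90, 7.88, 7.17 and 7.55 in starved and 6.28, 7.48, 7.57 and 7.55 in treated arrays, and Psmb9 4.49, 6.09, 5.78 and 5.66 and 4.61, 5.87, 5.78 and 6.01. Array 1 was the lowest in both conditions for both genes, and the gap to the next array was 1 or more on the log2 scale in each case. Psmb10, at 7.56, 7.73, 7.66 and 7.92 and 7.76, 7.89, 7.80 and 7.62, did not show this. The mean level of the 14 macrophage markers was 7.83 and 7.84 on the arrays numbered 1 and 8.26 to 9.19 on the other 6. For the 12 other genes of interferon-induced antigen processing it was 7.78 and 7.64 on the arrays numbered 1 and 8.21 to 8.31 on the other 6. The part of either list in the low Psmb8 and Psmb9 was not tested. The activator Psme3 also split by number, at 8.92, 6.92, 8.83 and 7.04 and 8.73, 7.95, 8.91 and 7.48, with arrays 1 and 3 high and arrays 2 and 4 low in both conditions.

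Array set marked several genes within newly transcribed RNA. Psmd3, a lid subunit, read 7.08, 8.85, 8.88 and 7.08 in newly transcribed RNA of starved cells, so that arrays 1 and 4 stood apart from arrays 2 and 3. In treated cells it read 7.12, 9.26, 9.73 and 7.02, with the same split, while total RNA kept to 8.99 to 9.33. Psme3 read 6.61, 8.76, 8.45 and 6.34 and 6.84, 8.52, 8.61 and 6.88 in newly transcribed RNA. Amplified starved array 3 resembled treated array 4 in Psmb7 (8.0 and 7.68, against 9.72 to 9.97 on the other 5 amplified arrays) and in Psmd1, a scaffold of the cap's base (8.28 and 8.18, against 9.41 to 9.80). This split ran within set 1, since the amplified arrays numbered 1, also of set 1, read with those of set 2. The median SD of the 44 genes was 0.45 and 0.55 in newly transcribed RNA, starved and treated, 0.53 and 0.61 in amplified total RNA, and 0.25 and 0.28 in total RNA.

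The third comparison set amplified against unamplified total RNA, so named by their titles, of the same kind of culture, over both serum conditions. Every total RNA array lay in array set 2, and amplified arrays lay in both sets. Kind of RNA and array set are thus partly confounded, and the part of amplification itself was not tested. Proteasome genes were called more often higher than lower in amplified RNA. In all 14 of 44 genes were called, against 18.8% of all probe sets, with 11 higher against 9.83% and 3 lower against 8.99%. Of the 44 genes 40 were among the brighter probe sets (above the median). With these probe sets only, 15 genes were called, against 31.1% of them. The median difference was 0.12, where all probe sets had 0.03. As deposited, the values gave 0 calls, against 2.13% of all probe sets. After scaling to a common median 15 were called higher and 1 lower, against 18.9% of all probe sets called, with a median of 0.41 against 0.10 for all probe sets. With array set as a block 12 were called, against 15.8%, with 11 higher against 8.31% and 1 lower against 7.5%. That fit called Psmb8 (1.34), Psme1 (1.33) and Psmb10 (0.77), which were not called without it and had 0.73, 0.58 and -0.06 there (limma, adjusted p = 0.0282, 0.000201 and 0.0410 with array set, 0.158, 0.148 and 0.931 without). Only 3 amplified arrays, in set 2, share a set with total RNA.

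**Figure D5:**
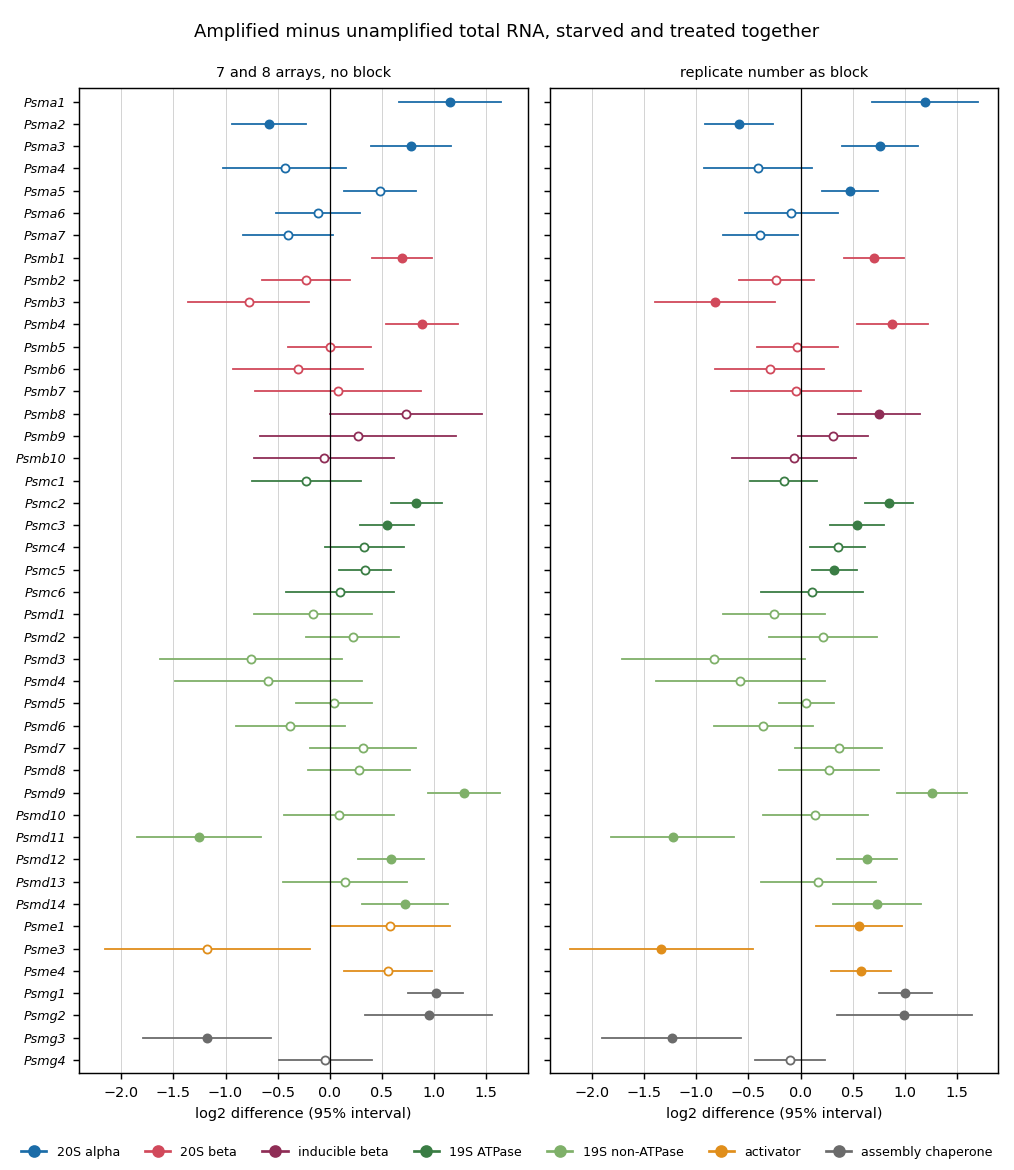
Log2 difference, amplified minus unamplified total RNA, of the 44 genes with 95% intervals from limma, without a block and with the replicate number as a block. Filled points have an adjusted p below 0.05: 14 in the left panel, of which 11 lie to the right of 0.

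Among the higher genes Psmd9 led. Amplified arrays read 9.15, 9.07 and 8.12 when starved and 8.63, 8.89, 8.75 and 8.26 when treated, and total RNA arrays 7.39, 7.57, 7.22 and 7.51 and 7.68, 7.32, 7.37 and 7.32. No amplified array overlapped a total RNA array, and the difference was 1.28 ± 0.16 (SE, limma, adjusted p = 0.000152, 7 arrays against 8). The chaperone Psmg1 was higher by 1.02 ± 0.12 (adjusted p = 0.000127), also without overlap, and Psmg2 by 0.95 ± 0.28 (adjusted p = 0.0335). The Psmg2 call was lost on leaving out any one of amplified starved array 3, amplified treated arrays 1 and 4, total starved arrays 2 and 3 and total treated arrays 3 and 4, with differences from 0.75 to 0.91 and adjusted p from 0.0565 to 0.0909. Of the core, Psma1 was higher by 1.15 ± 0.23 (adjusted p = 0.00352), Psmb4 by 0.88 ± 0.16 (adjusted p = 0.00198), Psma3 by 0.78 ± 0.18 (adjusted p = 0.00833) and Psmb1 by 0.70 ± 0.13 (adjusted p = 0.00293). The probe sets of Psmb4 disagree, since one of the others was called lower at -0.59 while the third was at 0.17. The further probe sets of Psmb1 had 0.08 and 0.68 (adjusted p = 0.785 and 0.204), neither called. Of the cap, Psmc2 was higher by 0.83 ± 0.11 (adjusted p = 0.000270), and Psmd14, the deubiquitinase of the lid, by 0.72 ± 0.19 (adjusted p = 0.0192), a call lost without amplified starved array 3 (adjusted p = 0.0526). Psmd12 and Psmc3 were higher by 0.59 and 0.55. The probe sets standing for Psmb4, Psma3, Psmd12 and Psmc3 carry the suffix for probes shared within a family, so related transcripts cannot be told apart. The further probe sets of Psmc3 disagree, at 1.96, called, and -0.04, not called. Of the 44 genes, 6 did not overlap upward, against 3.13% of all probe sets.

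The 3 genes called lower were Psmd11, Psmg3 and Psma2. Psmd11 read 7.69, 9.30 and 9.21 in amplified starved arrays and 10.0, 9.44, 10.0 and 9.61 in total ones, and in treated cells 7.67, 7.88, 8.76 and 9.15 against 10.05, 9.59, 10.04 and 9.69. The amplified arrays were lower without overlap, the difference was -1.25 ± 0.28 (SE, limma, adjusted p = 0.00667), and a second probe set of the gene was called lower at -1.14 while the third was at 0.38. Psmg3 had -1.18 ± 0.29 (adjusted p = 0.0117), with a probe set whose suffix marks relaxed rules of probe selection, and its other probe set -0.23, not called. Psma2 had -0.58 ± 0.17 (adjusted p = 0.0266). With array set as a block none of these 3 passed the test, at adjusted p of 0.0611, 0.159 and 0.224. Of the ubiquitin list 4 genes were called higher and 7 lower, among them the ubiquitin-selective segregase Vcp at 0.82 ± 0.13 (adjusted p = 0.000983) and its cofactor Ufd1 at -1.44 ± 0.26 (adjusted p = 0.00178). Of the interferon list 0 were called higher and 2 lower. The difference between 3′ and 5′ control probe sets of Gapdh, given above, did not overlap between these kinds of RNA, and its part in these calls was not tested.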

How the data were processed

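RNA was measured on 23 Affymetrix MG-U74Av2 arrays in 6 groups, each array being 1 sample. The authors deposited 1 linear intensity per probe set and array, per the labels and the table's values; the summarising software and any scaling are not given in the sources used here. Deposited medians ran from 7.3 to 75.2, so the intensities were quantile-normalized across arrays and log2(value + 16) was taken. Differences were tested with limma 3.58.1 in R 4.3.3, newly transcribed and amplified arrays in 1 fit for their comparisons, over 12422 probe sets without the 66 control probe sets, two-sided. Benjamini-Hochberg adjusted p below 0.05 is a call. Differences are on this log2 scale, which understates changes of dim probe sets. The test without a block was checked on simulated data with independent noise. That check does not cover the blocked fits or deviations shared between arrays. Precision is set by 3 or 4 arrays a group; whether the replicates came from separate cultures is stated only by the word biological in their titles.

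The replicate number was accepted as a block where every same-numbered pair deviated together (correlation over 0.1). This held for serum in newly transcribed RNA (0.80, 0.80, 0.76 and 0.70), serum in total RNA (0.70, 0.23, 0.47 and 0.57) and newly transcribed against amplified RNA in treated cells (0.56, 0.73, 0.71 and 0.69). It did not in amplified RNA (0.69, 0.77 and -0.47), nor in newly transcribed against amplified RNA of starved cells (0.37, 0.68 and -0.39). Amplified against total RNA did not qualify either (0.31, 0.07 and 0.15 in starved cells). The block is also shown for comparisons that did not qualify, as an alternative fit. For newly transcribed against amplified RNA of treated cells, the block fit also held the starved arrays, whose pairs did not all qualify. Array sets came from hierarchical clustering without the members.

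The genes, gene lists, motifs and tests were chosen with earlier results of these data known. Named are called genes, up to 10 per comparison, or the 4 with the largest test statistic where fewer were called. Always named are the 6 catalytic genes with their inducible forms and Psme1, the extremes of each role, up to 6 called list genes and the further probe sets of named genes; roles' extremes and further probe sets that were not called are partly given as ranges or left out. Comparisons of newly transcribed with amplified RNA and of amplified with total RNA share the amplified arrays. Alternatives were the values as deposited, a common median, pseudocounts of 1 and 64, the brighter probe sets (above the median) only, both blocks, all groups in 1 fit and leaving out arrays.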

Additional observations from a re-analysis of the deposited data

Results flagged for a closer look

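In groups of 4 arrays, 6 of 135 groups tested over 27 of the genes had 1 array far from the other 3, and chance gives about 1 in 20. Psmb7 read 7.68 in amplified treated array 4, where the other 3 read 9.72 to 9.96. Psmb8 read 6.28 in total treated array 1 against 7.48 to 7.57, and Psmb9 read 4.61 in the same array against 5.78 to 6.01. Psmd9 was the highest there, at 7.68 against 7.32 to 7.37. Psmd13 read 7.49 in newly transcribed starved array 4 against 8.29 to 8.41, and 8.01 in total treated array 3 against 8.75 to 8.85. Psmb8, Psmb9 and Psmb7 were low on a second array as well, total starved array 1 for the inducible genes and amplified starved array 3 for Psmb7.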

How the results depend on the processing

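With values as deposited, 0 of 44 genes were called by limma in newly transcribed against amplified RNA, starved or treated, and in amplified against unamplified total RNA. The median difference of the genes was then 0.61 in starved cells, and serum gave 0.36 in total and 0.55 in amplified RNA (0.35, 0.21 and 0.25 for all probe sets). Medians of the differences of responses were -1.06 against amplified and -0.76 against total RNA, where all probe sets had -0.53 and -0.45. With a pseudocount of 1 the calls were 2 in starved and 1 in treated cells (3.23% and 4.80% of all probe sets), with the brighter probe sets (above the median) only 5 in treated cells (13.8%), and with all 6 groups in 1 fit 8 in treated cells (11.4%). The replicate number as a block gave 10 in starved (15.4%) and 12 in treated cells (18.7%; 13 and 21.1% on treated arrays alone), and array set as a block 11 and 13 (18.5% and 20.6%). In amplified against unamplified RNA the replicate block gave 21 of 44 (24.8% of all probe sets). Of these 16 were higher, against 13.1% of all probe sets, and 5 lower, against 11.7%. Array set turned Psmb10 there from -0.06 to 0.77 (limma, adjusted p = 0.0410), and a common median left Psmd11 at -0.90 (adjusted p = 0.0829). The cause of these shifts was not tested.

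Leaving out single arrays kept serum and response counts at 0. The counts were 2 to 4 in starved cells (8 to 12 with array set), 2 to 5 in treated cells (9 to 13 with array set, 4 to 11 with the replicate block) and 12 to 16 in amplified against total RNA. Medians ran from -0.35 to -0.21 in starved cells (-0.46 to -0.29 with array set), from -0.44 to -0.18 in treated cells (-0.42 to -0.22 with array set, -0.37 to -0.26 with the replicate block) and from 0.05 to 0.21 in amplified against total RNA. For serum they ran from -0.16 to 0.13 in newly transcribed RNA (-0.05 to 0.01 with the block), from -0.12 to 0.00 in total RNA (-0.10 to -0.02 with the block) and from -0.14 to 0.06 in amplified RNA. Response differences ran from -0.15 to 0.14 against amplified and from -0.13 to 0.17 against total RNA (-0.04 to 0.06 with the block). Signal near background limits Psmc4 and Psmd2.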
